A study of Equus caballus with 9 samples.

Results

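The genes described here are 133 of the 21689 gene identifiers measured in cultured horse tenocytes, the fibroblast-like cells of tendon. They set fetal lines apart from adult lines, with 89 higher in fetal and 44 higher in adult lines. They were chosen by their measured fetal and adult levels in CPM, the gene's share of all counts in its library on a scale with the same total for every library. A gene was taken when its mean reached 1 CPM in fetal or adult lines, its means differed at least 2-fold, and the 3 fetal values did not overlap the 3 adult values. It also needed more than 3 counts in at least 1 library of tenocytes made from embryonic stem cells (ESCs), and it could not rank among the 100 highest counts of any library. The fetal against adult difference of these genes is therefore given as a description, and no test of it is used as support. What the choice did not use, apart from the count minimum and the limit on abundance, is the level in the ESC-derived cultures.

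RNA was sequenced from 9 cultures of Equus caballus cells grown in 2D. The fetal group held 3 lines of fetal tenocytes from gestation days 319, 320 and 321, at passages 6, 3 and 7, called replicates 1, 2 and 3. The adult group held 3 lines of adult tenocytes from donors aged 2 to 6 years, at passages 5, 6 and 4. Both primary groups grew in high-glucose DMEM with 10% fetal bovine serum. The ESC-derived group held lines IG, HJ and PW, here replicates 1, 2 and 3, at passages 22, 18 and 18. These lines had been kept on inactivated mouse embryonic fibroblasts with leukaemia inhibitory factor. Differentiation took 14 days off the feeders and without that factor, with TGF-β3 added at 20 ng/ml to their usual 15% serum medium. Origin, passage, medium and TGF-β3 changed together in that group and cannot be told apart. The series describes the 3 lines of each group as independent, and the sources used here do not say how many animals they came from.

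Tenocytes lay down and maintain the aligned collagen fibres that carry load in tendon. Fetal tendon heals with little scar in several mammals, whereas adult tendon usually heals with scar, and this is a common reason to compare cells of the 2 ages. TGF-β3 is a growth factor of the TGF-β family, which takes part in early tendon formation and is used to turn stem cells toward tenocytes. The deposited table carries Ensembl identifiers without names, and 0 of them could be matched to a symbol. The roles of the genes are therefore not stated, and the tenocyte label could not be set against tenocyte marker genes.

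Library totals ran from 20166692 to 23767643 counts in the 9 libraries. In a single edgeR fit of all 9 libraries, 0 of 13462 genes tested (0%) differed between fetal and adult lines at an adjusted p under 0.05, with 581 at an unadjusted p under 0.05. DESeq2 called 54 genes and limma-voom 0. Among the 11338 genes within the level, count and abundance limits, 705 (6.22%) had fetal and adult values that did not overlap. Of these, 572 lay under 2-fold and 133 are the genes described here. A further 361 genes were at least 2-fold apart with overlapping values. All 133 were among the genes of that fit, so none of them passed correction for fetal against adult, and nothing further is read from that contrast.

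Most of the separating genes were of low abundance, and most lay close to the limits that chose them. The 89 fetal-high genes had fetal means from 1.03 to 163 CPM, with a median of 5.22 CPM. Of them 31 reached 10 CPM and 3 reached 100 CPM. The 44 adult-high genes had adult means from 1.23 to 507 CPM, with a median of 10.4 CPM, and 23 of them reached 10 CPM. The ratio of the means had a median of 2.77 in fetal-high genes, where 23 of 89 reached 4-fold and 7 reached 10-fold. In adult-high genes the median ratio was 2.65, and 6 of 44 reached 4-fold and 4 reached 10-fold.

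The gap between the groups was narrow for most of these genes. The lowest fetal value was a median of 1.34 times the highest adult value in fetal-high genes, and it was under 1.2 times in 30 of 89. Only 9 fetal-high genes had a gap of 2-fold or more. In adult-high genes the median gap was 1.26 times, with 19 of 44 under 1.2 times and 2 at 2-fold or more. Just inside the limits the smallest ratios of means were 2.02 in fetal-high and 2.01 in adult-high genes, and just outside them the largest were 1.997 and 1.99. The smallest gaps inside were 1.02 times in both directions, against 0.986 and 0.997 times outside. The lowest means inside were 1.03 and 1.23 CPM, and the highest outside were 0.994 and 0.916 CPM. As many as 39 of the 133 genes held a fractional estimated count in some library. Salmon gives such counts where reads are divided between similar transcripts, so their levels are less certain.

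**Figure D1:**
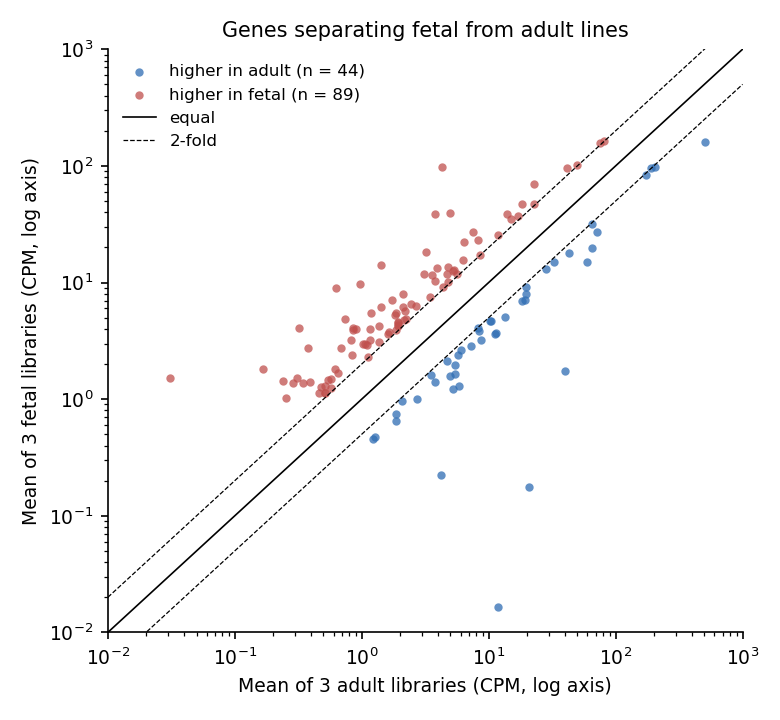
Mean level in the 3 fetal libraries (CPM, log axis) against the mean in the 3 adult libraries (CPM, log axis) for the 133 separating genes, coloured by direction, with lines at equality and at 2-fold. Most points hug the 2-fold lines, with median ratios of 2.77 and 2.65, and few stand far from them.

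The largest ratios at 10 CPM or more are shown by identifier, 2 in each direction, and all but ENSECAG00000003682 held fractional counts. ENSECAG00000023841 was at 22.9, 152 and 117 CPM in fetal replicates 1, 2 and 3 and at 2.15, 3.44 and 7.27 CPM in adult replicates 1, 2 and 3. In ESC-derived replicates 1, 2 and 3 it was at 0.497, 1.95 and 0 CPM. The fetal lines were thus high and unequal, the adult lines low, and every ESC-derived line lay under the lowest adult line. The fetal mean was 97.3 ± 66.8 CPM, 22.7 times the adult mean of 4.29 ± 2.67 CPM (SD, n = 3 each).

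ENSECAG00000014504 followed the same order of groups with more overlap below. Its fetal values were 12.0, 31.2 and 71.9 CPM, and its adult values 0.673, 0.402 and 10.2 CPM. ESC-derived replicates stood at 1.04, 1.86 and 0 CPM. Adult replicate 3 lay close to fetal replicate 1, and the ESC-derived lines spread from below to above the other 2 adult lines. The ratio of fetal to adult means was 10.2.

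ENSECAG00000018100 was nearly absent from fetal lines and split the ESC-derived ones. It had 1 count over the fetal libraries, at 0, 0.0496 and 0 CPM, and adult values of 10.6, 9.96 and 14.7 CPM. Summed counts gave an adult to fetal ratio of 756 with an exact 95% counting interval of 135 to 29886. ESC-derived replicate 3 was at 11.0 CPM, within the adult range, while replicates 1 and 2 were at 0.361 and 0.532 CPM. This gene therefore had no common ESC-derived level.

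ENSECAG00000003682 rested on a single adult line. It was at 60.7 CPM in adult replicate 1 and at 1.43 and 0.420 CPM in adult replicates 2 and 3. Fetal values were 0.384, 0.149 and 0 CPM and ESC-derived values 1.08, 0.177 and 0.0986 CPM. The lowest adult and the highest fetal line nearly met, at 9 counts each, so the ratio of means of 117 describes adult replicate 1.

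**Figure D2:**
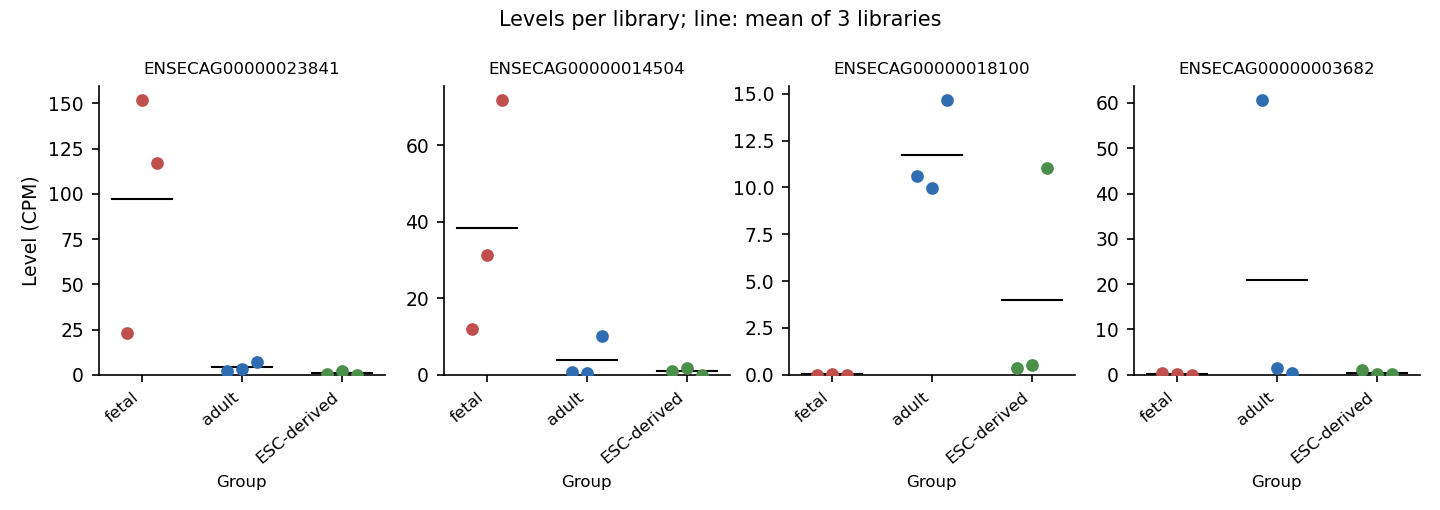
Level in CPM of the 4 genes shown by identifier in each fetal, adult and ESC-derived library (points, replicates 1 to 3 from left to right) with the mean of 3 libraries (line). ENSECAG00000018100 is at 11.0 CPM in ESC-derived replicate 3 alone of that group, and ENSECAG00000003682 is at 60.7 CPM in adult replicate 1 alone.

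Individual lines had unequal parts in the separation. Adult replicate 3 was the highest of the adult lines for 53 of the 89 fetal-high genes, so it most often set the edge facing the fetal lines. Across fetal-high genes the median level was 1.30, 1.38 and 2.14 CPM in adult replicates 1, 2 and 3, against 5.12, 4.36 and 6.88 CPM in fetal replicates 1, 2 and 3. Fetal replicate 3 was the highest fetal line for 49 of 89 genes and fetal replicate 2 the lowest for 39. Adult replicate 3 had the lowest passage of the adult lines, 4, and fetal replicate 3 the highest of the fetal lines, 7. Whether passage has a part in this was not tested.

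Adult replicate 1 carried much of the adult-high side. It was the highest adult line for 30 of the 44 adult-high genes, and adult replicate 2 the lowest for 26. Median levels were 11.0, 7.90 and 8.51 CPM in adult replicates 1, 2 and 3 and 3.58, 3.35 and 2.49 CPM in fetal replicates 1, 2 and 3. Summed over the adult-high genes, the level was 2233, 1541 and 1460 CPM in the adult lines and 664, 789 and 549 CPM in the fetal lines. The 5 most abundant of these genes held 60.3% to 73.7% of that sum in each of the 9 libraries, so the sum speaks for few genes.

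The list of genes depended on which lines entered it. With adult replicate 3 left out, the same limits gave 377 fetal-high genes, 85 of them among the 89. They gave 308 without fetal replicate 1, 178 without adult replicate 2, 176 without fetal replicate 2, 127 without adult replicate 1 and 103 without fetal replicate 3. The adult-high genes numbered 120 without adult replicate 2, 118 without fetal replicate 1, 95 without adult replicate 3, 73 without fetal replicate 2 and 58 without fetal replicate 3 or adult replicate 1. Fewer lines make it easier not to overlap, so a rise in number is built into this comparison, whereas the loss of a gene is not. Of the 89 fetal-high genes, 71 still met the limits without fetal replicate 3, 72 without adult replicate 2 and 77 without adult replicate 1. Of the 44 adult-high genes, 27 did so without adult replicate 1 and 35 without fetal replicate 3. Without each primary library not named for its list, 82 or more of the 89 and 39 or more of the 44 genes still met them.

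The ESC-derived mean was more than 2-fold from both primary means for most of the separating genes. Of the 89 fetal-high genes, the ESC-derived mean lay above both primary means for 46, between them for 13 and below both for 30. Of the 44 adult-high genes, it lay above both for 16, between for 10 and below both for 18. As shares these were 51.7%, 14.6% and 33.7% of fetal-high genes, near the 56.1%, 8.64% and 35.3% of the other genes within the limits whose fetal mean was the higher. In adult-high genes they were 36.4%, 22.7% and 40.9%, beside 55.7%, 5.27% and 39.0% of the other genes whose adult mean was the higher. Most of those other genes had primary means under 2-fold apart, which leaves little room between them, so the shares are not alike in kind. In genes at least 2-fold apart with overlapping values the shares were 53.3%, 19.6% and 27.1% where the fetal mean was higher. Where the adult mean was higher they were 31.3%, 21.8% and 46.9%. An ESC-derived level outside both primary means was thus not particular to the separating genes. It was within 2-fold of neither primary mean for 61 of the 89 (68.5%) and 28 of the 44 genes (63.6%), beside 34.6% and 39.7% of the other genes. The shares were 52.8% and 70.7% in genes at least 2-fold apart with overlapping values. Among fetal-high genes the ESC-derived mean was within 2-fold of the fetal mean alone for 11 (12.4%) and of the adult mean alone for 11 (12.4%). The shares were 5.72% and 2.73% in the other genes and 22.4% and 11.7% in the overlapping 2-fold genes. Among adult-high genes the numbers were 4 (9.09%) and 8 (18.2%). There the shares were 2.62% and 4.58% in the other genes and 15.6% and 8.84% in the overlapping 2-fold genes. As in any bulk culture, a lower level may come from fewer expressing cells or from less RNA per cell, and these cannot be told apart.

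A stricter placing asked all 3 ESC-derived values to lie outside all 6 primary values. All 3 were above for 36 of 89 fetal-high genes (40.4%) and 8 of 44 adult-high genes (18.2%), beside 34.0% of the 11338 genes within the same level, count and abundance limits. All 3 were below for 16 fetal-high genes (18.0%) and 16 adult-high genes (36.4%), beside 21.6% of those genes. The share of fetal-high genes above or below was near the background on the low side and somewhat over it on the high side, and adult-high genes leaned the other way. Genes at least 2-fold apart with overlapping values had more above than below where the fetal mean was higher, 28.5% and 8.41%. Where the adult mean was higher they had fewer above than below, 18.4% and 25.9%. The opposite balance of the 2 directions was therefore not particular to the separating genes. The limits left out 54 further genes with 3 or fewer counts in every ESC-derived library, 38 fetal-high and 16 adult-high, and 7 fetal-high genes for high abundance. With the former kept, the genes with an ESC-derived mean below both primary means number 67 of 127 fetal-high and 32 of 60 adult-high. With the latter kept instead, those with an ESC-derived mean above both number 53 of 96 fetal-high, and the adult-high genes do not change. The balance between above and below was therefore set in part by the limits.

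**Figure D3:**
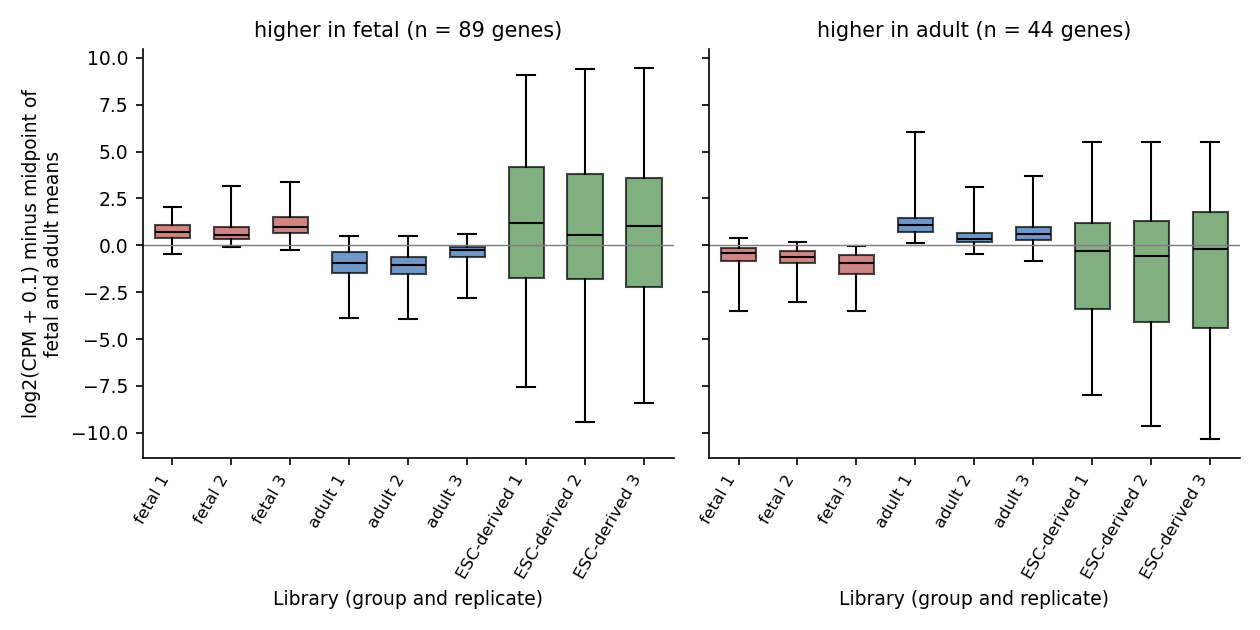
Level of each separating gene in each library, as log2(CPM + 0.1) minus the midpoint of the fetal and adult means, for the 89 fetal-high (left) and 44 adult-high genes (right). Boxes give the quartiles and the median, whiskers the full range, and the 3 ESC-derived libraries spread far beyond the 6 primary ones in both directions.

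To set the ESC-derived level against both primary groups at once, ESC-derived libraries were compared with the average of the fetal and adult log levels. On the log scale this average is independent of the difference between fetal and adult means when the spread is equal. The spread was not equal here. With 0.1 CPM added, 8.99% of fetal-high genes differed at least 4-fold between fetal lines and 23.6% between adult lines. For adult-high genes the shares were 15.9% and 9.09%. The level, count and abundance limits also acted on this average or on the ESC-derived level. The choice of genes may therefore bear on this comparison. The 133 genes all passed the filter on low counts, as their level limit made likely. By edgeR at an adjusted p under 0.05, 53 of 133 genes (39.8%) were higher in ESC-derived cultures, beside 31.4% of all 13462 genes tested. A further 47 (35.3%) were lower, beside 32.4%. In all, 100 of the 133 genes passed and 33 did not. With libraries scaled by total counts alone, the split was 58 higher and 41 lower, while over all genes tested it moved from 49.2% to 62.0% of calls higher. The near-even split also rested on the minimum of ESC-derived counts. Without that minimum, 181 genes were tested, of which 53 (29.3%) were higher and 95 (52.5%) lower, so that lower calls were then the more frequent. The limit on abundance acted the other way. With the minimum in place and the most abundant genes kept, 140 genes were tested, of which 60 were higher and 47 lower.

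The 2 directions differed in their makeup. Among the 89 fetal-high genes 42 rose (47.2%), 29 fell (32.6%) and 18 did not pass. Among the 44 adult-high genes 11 rose (25.0%), 18 fell (40.9%) and 15 did not pass. The median log2 fold change was 0.90 in fetal-high and -0.55 in adult-high genes, beside -0.02 over all genes tested. The median size of the fold change, without sign, was 2.92 and 2.31 on the log2 scale, beside 0.89. Without the ESC-derived count minimum, 33.6% of fetal-high genes tested rose and 52.0% fell, and 19.6% of adult-high genes rose and 53.6% fell. No test of the difference between the 2 lists was made, since the genes were chosen with results known and genes are not replicates.

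Neighbouring sets of genes put these shares in context. Of the 214 genes at least 2-fold higher in fetal lines with overlapping values, 33.0% of those tested rose and 17.0% fell in ESC-derived cultures, with a median size of 1.73 on the log2 scale. Of the 147 such genes higher in adult lines, 22.5% rose and 38.0% fell, with a median size of 2.83. Genes whose values did not overlap but which lay under 2-fold apart had median sizes of 0.85 (335 fetal-high) and 0.88 (237 adult-high). Of those fetal-high genes 23.0% rose and 42.7% fell, the opposite balance to the 89 separating ones, and of those adult-high genes 27.4% rose and 44.7% fell. The median sizes in the separating genes were thus nearer to those of the overlapping 2-fold genes than to those of the separated genes under 2-fold. The median primary level was 3.53 and 6.81 CPM in the fetal-high and adult-high genes and 3.81 and 3.01 CPM in the overlapping sets, against 16.7 and 28.1 CPM in the sets under 2-fold. The part of level in these sizes was not tested.

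For the genes shown by identifier, the comparison with the primary average gave 2 calls. ENSECAG00000023841 was lower in ESC-derived cultures, by a log2 fold change of -4.83 ± 1.02 (SE, edgeR adjusted p = 0.00282, with 4.86e-05 to 0.0184 over the alternatives). ENSECAG00000014504 was also lower, at -3.79 ± 1.29 (SE, edgeR adjusted p = 0.0284), but its adjusted p ranged from 0.0108 to 0.0814 over the alternatives. That call was lost without ESC-derived replicate 1 or 3, adult replicate 3 or fetal replicate 3, and in limma-voom. ENSECAG00000018100 had a log2 fold change of 2.63 ± 1.18 (SE, edgeR adjusted p = 0.0787, with 0.0178 to 0.882 over the alternatives), which became -0.34 without ESC-derived replicate 3. ENSECAG00000003682 had -2.45 ± 1.76 (SE, edgeR adjusted p = 0.249, with 0.133 to 0.902 over the alternatives).

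**Figure D4:**
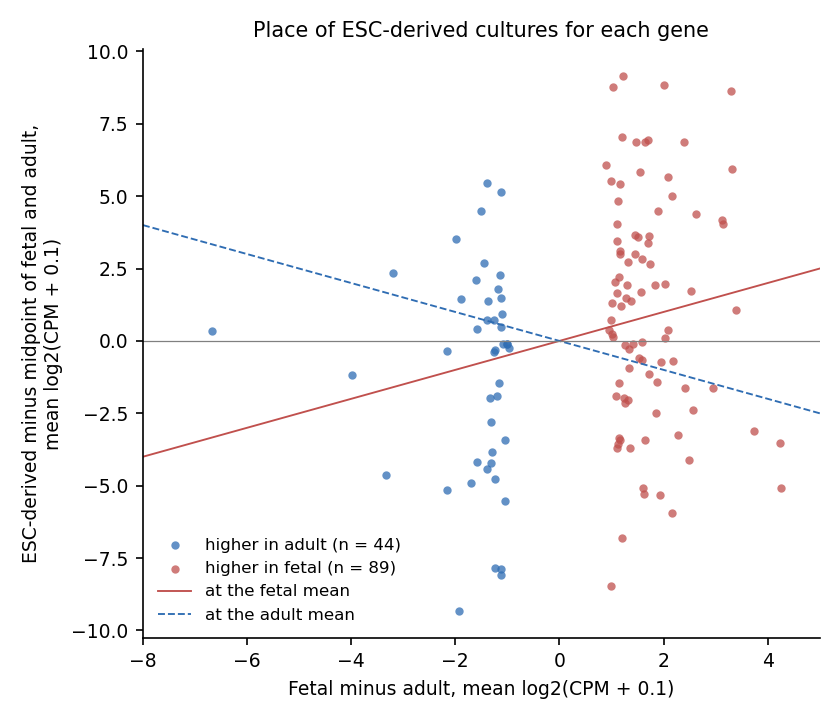
ESC-derived mean minus the midpoint of the fetal and adult means against the fetal minus adult difference, both in mean log2(CPM + 0.1), for the 89 fetal-high and 44 adult-high genes. The solid line marks the fetal mean and the dashed line the adult mean, and most points lie outside the space between the lines.

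ESC-derived cultures were also set against each primary group in turn. These 2 comparisons share the ESC-derived libraries, and each uses primary libraries that chose the genes, so their values are given side by side only. Against fetal lines, edgeR called 48 of 133 genes higher (36.1%) and 47 lower (35.3%) in ESC-derived cultures, beside 27.9% and 29.9% of all genes tested. Against adult lines it called 53 higher (39.8%) and 40 lower (30.1%), beside 28.3% and 30.0%. Over all genes tested, 25.4% were higher than both groups and 27.5% lower than both, and 36.8% had neither call. Calls against fetal lines alone were rarer, at 2.46% higher and 2.44% lower. Calls against adult lines alone were at 2.86% higher and 2.5% lower. Of the 89 fetal-high genes, 34 were higher than both groups and 16 lower than both. A further 16 were lower than fetal lines with no call against adult lines, 12 were higher than adult lines with no call against fetal lines, and 11 had neither call. Of the 44 adult-high genes, 7 were higher than both groups and 15 lower than both. Another 7 were higher than fetal lines alone, 9 lower than adult lines alone, and 6 had neither call. A missing call does not show that the levels were alike. Choosing genes with fetal and adult levels apart favours a call against fetal or adult lines alone. Such calls are therefore not read as likeness to either group.

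The separating genes were then divided by the place of the 3 ESC-derived values, and the levels in each set follow from that division in direction but not in size. Over the 36 fetal-high genes above every primary library, the ESC-derived mean ran from 1.76 to 495 CPM and the fetal mean from 1.03 to 70.0 CPM. Their median level was 103, 96.2 and 94.2 CPM in ESC-derived replicates 1, 2 and 3. It was 4.52, 3.62 and 4.39 CPM in fetal and 0.884, 1.16 and 1.96 CPM in adult replicates. The ESC-derived mean was 1.57 to 390 times the fetal mean, with a median of 10.8 times. The 16 fetal-high genes below every primary library had medians of 0.497, 0.266 and 0.246 CPM in ESC-derived, 17.9, 15.5 and 30.4 CPM in fetal and 5.43, 3.22 and 8.18 CPM in adult lines. For the remaining 37 genes the medians were 2.03, 1.68 and 2.32 CPM in ESC-derived replicates, 3.77 to 6.93 CPM in fetal and 1.01 to 1.82 CPM in adult lines. ESC-derived replicate 2 lay within the adult range of medians and the other ESC-derived replicates above it.

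The adult-high genes held fewer that were abundant in ESC-derived cultures. The 8 above every primary library had medians of 35.2, 39.1 and 52.3 CPM in ESC-derived, 2.79, 3.22 and 1.99 CPM in fetal and 9.61, 5.09 and 9.72 CPM in adult lines. The 16 below every primary library had medians of 0.451, 0.355 and 0.246 CPM in ESC-derived, 10.0, 8.11 and 5.74 CPM in fetal and 56.8, 21.0 and 20.7 CPM in adult lines. The most abundant adult-high gene was in this set, chosen after its values were seen. It was at 525, 576 and 420 CPM in adult, 49.7, 211 and 218 CPM in fetal and 0.903, 0.222 and 0.0986 CPM in ESC-derived lines. The adult lines were close to each other for that gene, and fetal replicate 1 was the lowest primary line.

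Summed over the 89 fetal-high genes, the level was 5687 ± 689 CPM in ESC-derived, 1468 ± 222 CPM in fetal and 538 ± 153 CPM in adult lines (SD, n = 3 each). For the 44 adult-high genes the sums were 853 ± 119, 667 ± 120 and 1745 ± 425 CPM (SD, n = 3 each). ESC-derived sums thus lay above both primary groups for fetal-high genes and closer to the fetal than to the adult sums for adult-high genes. The adult-high sums rested on different genes, so their closeness is not read as likeness to fetal lines. The adult-high gene with the highest ESC-derived mean was at 333 CPM there, against 5.05 CPM in fetal and 13.5 CPM in adult lines. The one highest in adult lines, at 507 CPM, was at 160 CPM in fetal lines and 0.408 CPM in ESC-derived cultures. Medians over the same genes read differently. For fetal-high genes the median level was 7.36, 3.10 and 6.60 CPM in ESC-derived replicates 1, 2 and 3, around the fetal medians of 4.36 to 6.88 CPM. For adult-high genes it was 3.54, 1.22 and 1.55 CPM, with replicates 2 and 3 below the lowest fetal median of 2.49 CPM. The excess in the sums therefore came from the more abundant genes. The 5 most abundant fetal-high genes of each library held 36.5% to 40.2% of the ESC-derived sums. They held 36.9% to 47.6% of the fetal and 49.1% to 57.0% of the adult sums. The ESC-derived sums were therefore not more concentrated in few genes than the primary ones.

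Some genes abundant in ESC-derived cultures had low fetal values that differed between the fetal lines. Among the 68 genes at 100 CPM or more in ESC-derived cultures whose adult mean was under 0.1% of the ESC-derived mean, the level in fetal replicates 1 and 2 had a median of 0.191% and 0.218% of the ESC-derived mean. The quartiles were 0.153% to 0.247% and 0.16% to 0.316%. In fetal replicate 3 the median was 0.0593%, and in adult replicates 1, 2 and 3 it was 0.0414%, 0.0352% and 0.0439%. The adult values are low by the choice of these 68 genes, but the fetal values did not enter it. Fetal replicates 1 and 2 thus held a higher low level of these genes than fetal replicate 3. All 7 genes left out for abundance were among the 68, at 692 to 3833 CPM in ESC-derived cultures, 1.03 to 5.03 CPM in fetal and 0.191 to 1.56 CPM in adult lines, or 0.0982% to 0.217% of the ESC-derived mean in fetal lines. Carry-over of reads between libraries was not tested.

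Few of the separating genes were as low beside the ESC-derived level. The fetal mean was under 0.5% of the ESC-derived mean for 3 of the 89 fetal-high genes and under 5% for 14, and no adult-high gene was under 1%. The fetal-high gene with the highest ESC-derived mean was among the 3, at 429, 447 and 608 CPM in ESC-derived, 1.07, 1.83 and 0.902 CPM in fetal and 0.421, 0.357 and 0.653 CPM in adult lines. With the 3 genes left out, the ESC-derived mean lay above both primary means for 43 of 86 fetal-high genes, and 97 of 130 genes passed the comparison with the primary average. The adult-high gene with the highest ESC-derived mean was at 349, 306 and 344 CPM in ESC-derived, 6.98, 5.90 and 2.28 CPM in fetal and 22.7, 7.63 and 10.2 CPM in adult lines. Both genes were chosen after their values were seen.

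Taken over all 133 genes, each ESC-derived line lay far from both primary groups and was nearer to the fetal mean. The root mean square difference in log2(CPM + 0.1) from the fetal mean was 3.78, 3.91 and 4.11 in ESC-derived replicates 1, 2 and 3. From the adult mean it was 4.25, 4.36 and 4.41. Over all 13462 genes tested the distances were 2.55 to 2.64 from fetal and 2.63 to 2.70 from adult means, so the fetal mean was the nearer there too. The order held in each line with TMM-scaled levels, at 3.76 to 4.09 against 4.19 to 4.35, and with 1 CPM added before the log, at 3.15 to 3.21 against 3.48 or more. The distances were not computed without the minimum of ESC-derived counts, which left out 38 fetal-high and 16 adult-high genes. Gene by gene, the ESC-derived mean was within 2-fold of the fetal mean alone for 11 fetal-high (12.4%) and 4 adult-high genes (9.09%). In genes at least 2-fold apart with overlapping values these shares were 22.4% and 15.6%. The ESC-derived mean was within 2-fold of the adult mean alone for 11 (12.4%) and 8 (18.2%), beside 11.7% and 8.84%. Among the primary lines adult replicate 3 was the nearest adult line to the fetal mean, at 1.56 against 2.34 and 2.11 for adult replicates 1 and 2. Fetal replicate 3 was the farthest fetal line from the adult mean, at 2.25 against 1.78 and 1.84. The separation of primary lines in this space follows from how the genes were chosen.

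**Figure D5:**
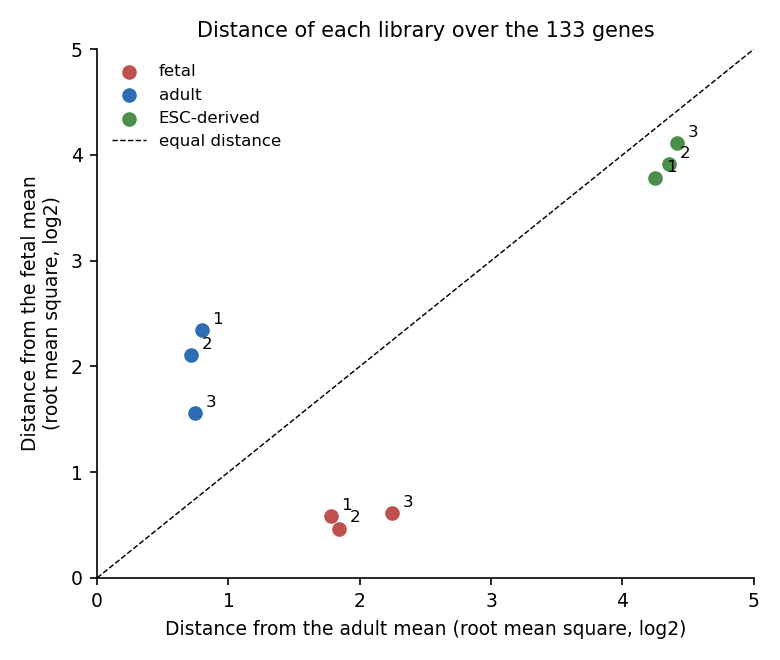
Root mean square difference in log2(CPM + 0.1) from the fetal mean against that from the adult mean over the 133 genes, for each library (numbers are replicates; a primary line enters the mean of its own group). The 3 ESC-derived libraries sit at 3.78 to 4.11 and 4.25 to 4.41, under the line of equal distance.

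The separating genes also varied between the ESC-derived lines. The highest ESC-derived value was at least 4 times the lowest, each with 0.1 CPM added, for 29 of 133 genes (21.8%), beside 5.70% of all genes tested. It was at least 10 times the lowest for 10 genes (7.52%), beside 1.5% of all genes tested. Among the 361 genes at least 2-fold apart with overlapping values the share at 4 times was 20.2%, and among the 572 genes under 2-fold it was 5.42%. The share was 20.2% in fetal-high and 25.0% in adult-high genes. Between fetal lines the share at 4 times was 11.3% of the 133 genes, beside 5.56% of all genes tested. Between adult lines it was 18.8%, beside 7.39%. A wider spread than in all genes was thus not particular to the ESC-derived lines. The ESC-derived mean was under 1 CPM for 26 fetal-high and 16 adult-high genes, where a few counts can make such a ratio. The part of level in this spread was not tested. Within fetal-high genes, ESC-derived replicate 1 was the lowest ESC-derived line for 7, replicate 2 for 42 and replicate 3 for 40, so replicate 1, at passage 22, was seldom the lowest. In adult-high genes the numbers were 13, 13 and 18. Of the 133 genes, 109 had more than 3 counts in all 3 ESC-derived libraries, 15 in only 2 and 9 in only 1.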

How the data were processed

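The authors deposited 1 table of estimated counts, with a value for each gene in 9 libraries. The submitters' processing notes name FastQC, Salmon and R 3.5.2. The Salmon version, genome build and annotation: not given in the sources used here. Libraries came from a stranded mRNA kit, per the labels' protocols. CPM was computed from column sums for choosing and placing genes. Estimated counts were rounded and fitted with edgeR 4.0.16 in R 4.3.3 (TMM, filterByExpr, glmQLFit, glmQLFTest), 1 fit of group means over all 9 libraries, with Benjamini-Hochberg adjustment over the 13462 genes tested and a threshold of 0.05. The comparison with the primary average was also run on simulated counts in which few genes changed. In the data most genes tested were called (63.8%), so that run does not speak for the calls given here. DESeq2 1.42.0 and limma 3.58.1 were alternatives, with other scalings, filters and libraries left out. Standard errors derive from the F statistic. Counting intervals are exact at 95% and cover counting error only, since reads copied by PCR are not independent molecules. Between libraries of the same group, chi-square divided by its degrees of freedom was 51.9 to 136, so no library was a repeat of another. Genes shown are the 2 in each direction with the largest ratio of means at 10 CPM or more. The 22 gene and marker lists were not run because 0 identifiers matched a symbol. The members and lists were chosen with earlier results of these data known.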

Additional observations from a re-analysis of the deposited data

How the results depend on the processing

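Counts of separating genes follow the limits that chose them, with 133 genes in all, 89 fetal-high and 44 adult-high. A 1.5-fold limit gave 261, 176 and 85, a 4-fold limit 29, 23 and 6, no level limit 323, 236 and 87, and 5 CPM 78 and 45 in the first 2. TMM scaling gave 135 genes, 120 of them shared, and RLE scaling 132 with 121 shared. Without each primary library in turn there were 161 to 472 genes, 103 to 377 fetal-high and 58 to 120 adult-high. The number passing the comparison with the primary average was 78 to 103 over other scalings, filters and tools, where the 78 were of 92 tested at 5 CPM, and 92 to 98 without each library. Without the ESC-derived count minimum it was 148 of 181, 53 higher and 95 lower. With the most abundant genes kept it was 107 of 140, 60 higher and 47 lower. Against fetal and adult lines the number was 74 to 98 and 75 to 93 over all alternatives. Total counts alone moved the median of all genes by 0.30 on the log2 scale and the higher share of all calls from 49.2% to 62.0%; among the separating genes it went from 53.0% to 58.6% (58 higher, 41 lower). Fetal against adult gave 54 genes by DESeq2 (38 higher, 16 lower in fetal), 1 in the 6 libraries alone, 1 with passage as a covariate, and 0 to 1 without each library; the cause was not tested. With no ESC-derived count minimum, 67 fetal-high and 32 adult-high genes lay below both primary means, because genes near 0 there were added. Without genes holding fractional counts, 19 fetal-high genes lay below both and 6 adult-high genes between, as fewer genes remained. Alternatives without genes of fractional counts, with abundant genes kept, without the count minimum for placing, without 3 genes low beside ESC-derived levels, and for distances were chosen after seeing the data. ENSECAG00000014504 against adult lines turned to 0.50 without adult replicate 3 (-3.04 to 0.50 without each library), ENSECAG00000018100 against the primary average to -0.34 without ESC-derived replicate 3 (-0.34 to 3.61), and ENSECAG00000003682 against fetal lines to -0.63 without ESC-derived replicate 1 (-0.63 to 2.32), all as log2 fold changes. No paired analysis was possible because replicate numbers follow the order of deposition. Depth limits genes near 1 CPM most.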
